A study of Rattus norvegicus with 18 samples.

Results

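Aminoacyl-tRNA synthetases load each transfer RNA with its amino acid, the step that precedes every elongation cycle of the ribosome. The enzymes of the cytosol and those of mitochondria are encoded by separate nuclear genes for most amino acids, the mitochondrial ones carrying the suffix 2 in their symbols, whereas Gars1 and Kars1 serve both compartments. Several cytosolic synthetase genes belong to the amino acid response, in which uncharged tRNA activates the kinase Gcn2 and translation of the transcription factor Atf4 rises. The genes were found by their symbols in the platform annotation of a whole-transcript rat array: one letter for the amino acid followed by ars and an optional 1 or 2, together with Eprs1, Farsa and Farsb. This rule found 30 genes among 14506 named genes, of which 19 were cytosolic and 11 mitochondrial. They were read by 31 of 29214 probe sets, since Hars1 had 2, and the brighter probe set of Hars1 was used. The mitochondrial genes Cars2, Ears2, Iars2, Mars2 and Wars2 were not analysed here.

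Retinal RNA of young adult Sprague Dawley rats, aged 80 to 120 days and reared in dim cyclic light of 5 lux, was read on 18 arrays, 3 for each of 6 groups. The SafLD group was given dietary saffron over 3 weeks, at 1 mg/kg/day, and exposed to damaging light for 24 h at its end. The PBMLD group received photobiomodulation (PBM), red light applied to the eye for 3 min a day over 5 days, before the same light exposure. The LD group was exposed to the light alone, for which its labels give 1000 lux in one place and 100 lux in another. The labels of SafLD and PBMLD give 1000 lux in both places, and the methods give 1000 lux for the damaging light. The saffron, PBM and control groups were not exposed to it. By the methods the control rats were fed the vegetable matrix that also carried the saffron. By the methods each array held the retina of a different animal, and a group comprised male and female rats, without a sex given for an array. The methods state more animals for a group than the 3 arrays that were analysed here. The groups are called by these names below, and SafLD, PBMLD and LD together are called light-exposed. Values are log2 levels as summarised by the authors with RMA, a procedure that corrects background, equalises the arrays and combines the probes of a probe set, so a difference of 1 is a 2-fold change. Levels of different probe sets are not on one scale, and only differences between groups are compared between genes.

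Differences were fitted with limma over all probe sets and 18 arrays, two-sided, and a gene is called higher or lower where its p, adjusted by the Benjamini-Hochberg method across the 29214 probe sets, was below 0.05. After a difference, ± gives its standard error, with n = 3 arrays a group. An exact test on 3 arrays against 3 cannot give a p below 0.1. The median of an array lay between 6.12 and 6.19. By distance over all probe sets, 7 of the 18 arrays were nearest to an array of another group: the 3 PBMLD arrays, the 3 saffron arrays and control 3. PBMLD 2, nearest to saffron 1, had the largest such distance of the 18. Of the 11 lens markers measured none was called in the average light effect, the difference between 9 light-exposed and 9 unexposed arrays, but their mean level was uneven within groups, at 9.74 to 10.72 in SafLD, 10.18 to 11.31 in PBMLD, 9.73 to 12.23 in LD, 10.63 to 11.51 in saffron, 9.70 to 10.19 in PBM and 9.80 to 10.36 in control. Of the cone markers 3 of 4 were lower in the average light effect, with mean levels of 9.01 to 9.69 on light-exposed arrays and 9.62 or more on unexposed arrays. Of the 5 rod markers 2 were lower, with mean levels of 12.59 to 12.86 on light-exposed arrays and 12.94 to 13.06 on unexposed arrays. Of the ganglion cell markers 2 of 4 were lower in SafLD, at mean levels of 9.18 to 9.42, against 9.79 to 9.93 in control. None of 5 pigment epithelium markers was called in any comparison, and their mean level was 5.05 to 5.84 in SafLD, 4.76 to 6.68 in PBMLD, 6.13 to 6.98 in LD, 5.17 to 5.53 in saffron, 5.02 to 5.68 in PBM and 5.09 to 6.24 in control. Of 3 amacrine and horizontal cell markers and of 3 endothelial markers 1 each was lower in the average light effect. In whole retina, fewer cells of a type and less RNA per cell cannot be told apart, and the part of these markers in the results below was not tested.

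After light exposure a large part of the cytosolic synthetase genes was higher and, among the mitochondrial ones, Yars2 alone. In the average light effect 11 of 19 cytosolic genes were called higher, against 1 of 11 mitochondrial genes, and none of the 30 was called lower. Over all probe sets 2.83% were called higher and 2% lower. The cytosolic genes were Tars1, Cars1, Iars1, Mars1, Aars1, Yars1, Lars1, Gars1, Nars1, Eprs1 and Sars1, with differences from 1.15 for Tars1 to 0.36 for Sars1, and of these Tars1 and Cars1 passed a 2-fold change, as did 0.377% of all probe sets. The other 8 cytosolic genes lay between -0.07 and 0.16. The median difference was 0.53 for the cytosolic genes, 0.18 for the mitochondrial genes and -0.01 for all probe sets. The call of each of these 12 genes held with any 1 array left out. The count of mitochondrial genes called higher was 1 in 17 of these fits and 3 without PBMLD 2. It was also above 1 with array weights. On single arrays the mitochondrial genes read from 5.60 to 8.70. The called cytosolic genes read from 8.27 to 11.81 and the 8 uncalled ones from 7.25 to 10.42. The part of the signal level in the difference between the classes was not tested.

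**Figure D1:**
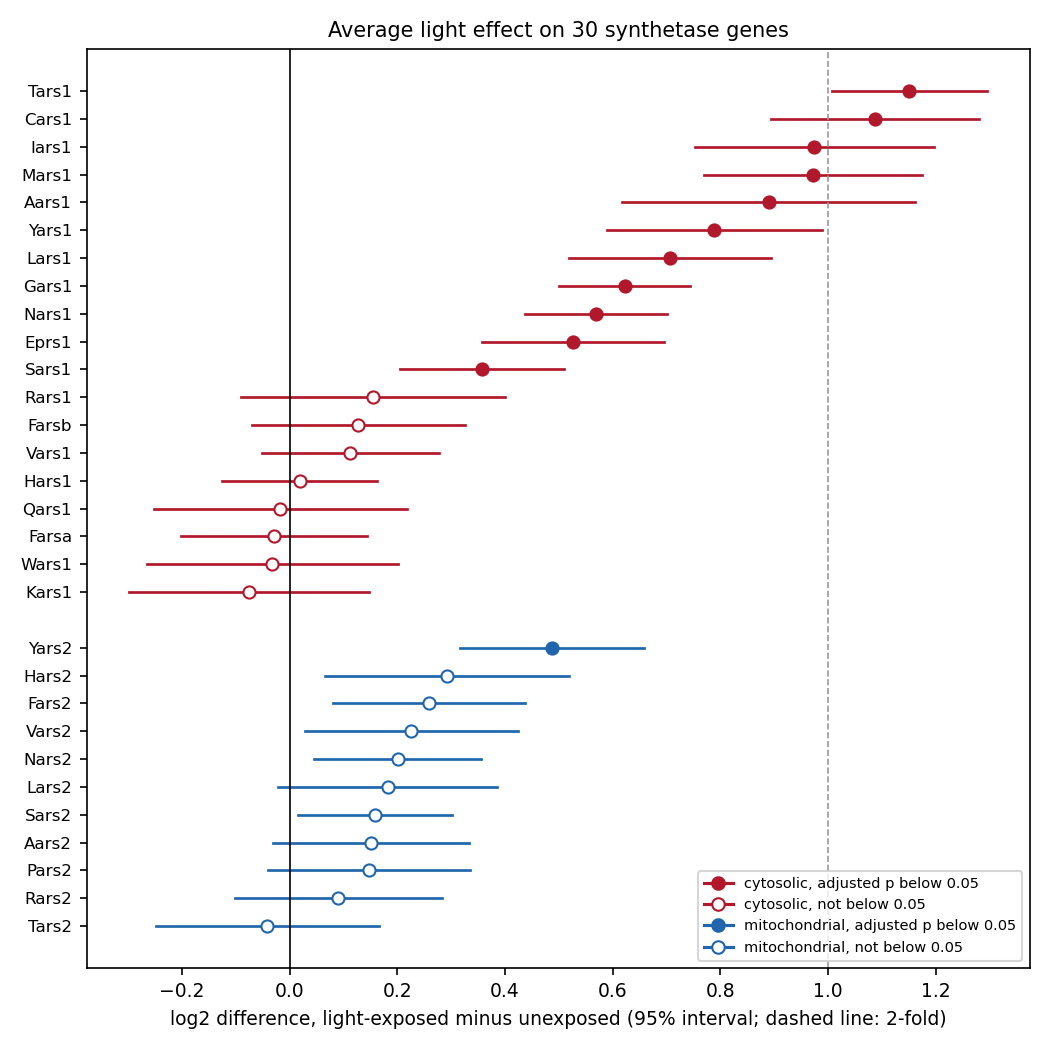
Difference in log2 level between 9 light-exposed and 9 unexposed arrays for 19 cytosolic (red, above) and 11 mitochondrial (blue, below) synthetase genes, with 95% intervals and with filled points where the adjusted p was below 0.05. The cytosolic genes fall into 11 filled points from 0.36 to 1.15 and 8 open points near 0, whereas the mitochondrial genes lie between -0.04 and 0.49.

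Each exposed group was then set against control. In SafLD 10 of 30 members were higher, all cytosolic, where 1.45% of all probe sets were, and 6 of them passed 2-fold, where 0.548% did. In LD 7 were higher, again cytosolic, where 0.839% of all probe sets were, and Tars1 alone passed 2-fold, where 0.466% did. In PBMLD 6 were higher, which were 5 cytosolic genes and Yars2, where 0.325% of all probe sets were, and Cars1 and Iars1 passed 2-fold, where 0.157% did. Tars1, Cars1, Gars1, Iars1 and Mars1 were higher in all 3 exposed groups, as were 0.233% of all probe sets, although these comparisons share the control arrays. The median difference of the cytosolic genes was 0.52 in SafLD, 0.33 in PBMLD and 0.48 in LD. For the mitochondrial genes it was 0.28 in SafLD, 0.18 in PBMLD and 0.16 in LD. The mitochondrial medians moved with single arrays, to 0.16 in SafLD without control 3, to 0.11 in PBMLD without PBMLD 1 and 0.35 without PBMLD 2, and to 0.10 in LD without LD 2. The PBMLD count depended on single arrays. Without PBMLD 2 it was 9 cytosolic genes and no mitochondrial one, and without control 1 it was 3 cytosolic genes, whereas the LD count was 4 without control 1.

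Of the comparisons of light exposure, 3 share no array: SafLD against saffron, PBMLD against PBM, and LD against control. In SafLD against saffron the same 10 cytosolic genes were higher as in SafLD against control, 7 of them by more than 2-fold, where 1.14% of all probe sets were higher and 0.4% by more than 2-fold. PBMLD against PBM gave 4, which were Tars1, Cars1, Gars1 and Yars2, where 0.205% of all probe sets were higher. Tars1 passed 2-fold there, as did 0.106% of all probe sets, and 6 cytosolic genes were higher without PBMLD 2. Tars1, Cars1 and Gars1 were thus higher in all 3 separate comparisons, as were 0.154% of all probe sets. The difference was above 0 in all 3 for 12 of 19 cytosolic and 8 of 11 mitochondrial genes, against 16.6% of all probe sets. Kars1 was below 0 in all 3.

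**Figure D2:**
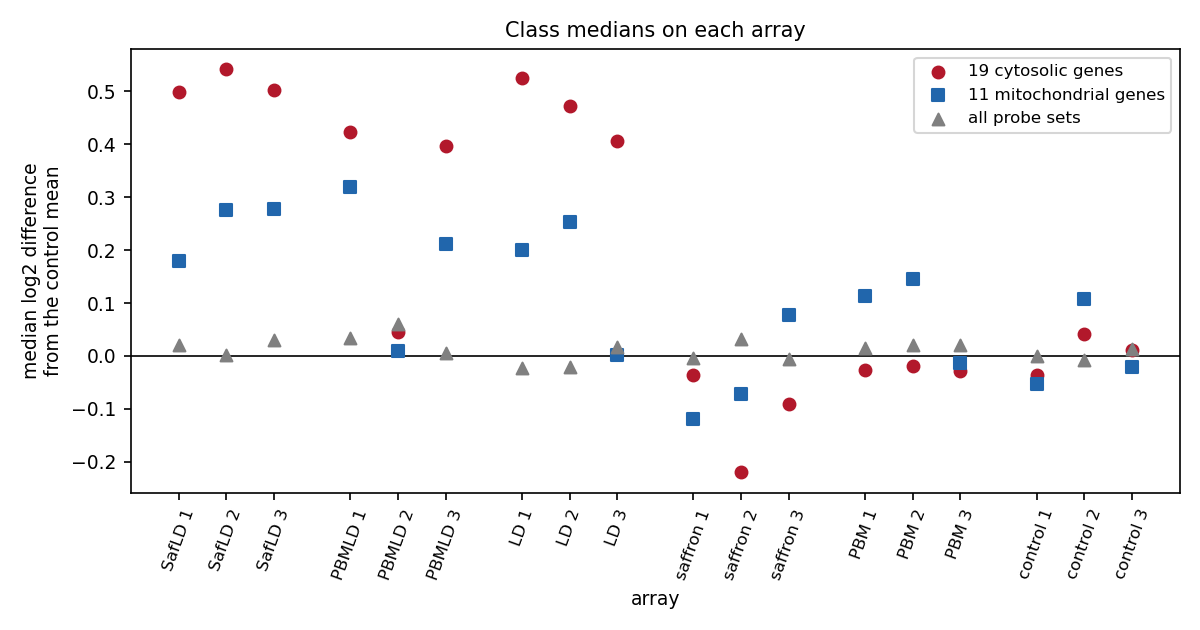
Median log2 difference from the control mean on each of 18 arrays, for 19 cytosolic genes (red circles), 11 mitochondrial genes (blue squares) and all probe sets (grey triangles). The cytosolic median lay between 0.40 and 0.54 on 8 of 9 light-exposed arrays and at 0.05 on PBMLD 2, against -0.22 to 0.04 on unexposed arrays.

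The cytosolic median was above the mitochondrial one on each of the 9 light-exposed arrays, by 0.04 on PBMLD 2 and by 0.10 to 0.40 on the others, and on 3 of 9 unexposed arrays. On PBMLD 2, 17 of the 19 cytosolic genes were at their lowest among the PBMLD arrays, and the mean level of 3 Müller cell markers was 9.76, beside 10.62 on PBMLD 1 and 10.50 on PBMLD 3. The mean level of the pigment epithelium markers was 6.68 on PBMLD 2, beside 4.76 on PBMLD 1 and 5.71 on PBMLD 3. LD 3 was the lowest of its group for 13 cytosolic and 8 of 11 mitochondrial genes, with a lens level of 12.13 and a Müller marker level of 9.87. The lens level of LD 1 was higher, at 12.23, and LD 1 was the highest of its group for 10 cytosolic genes. SafLD 1 was the lowest of its group for 12 cytosolic and 8 mitochondrial genes, and saffron 2 for 14 cytosolic and 4 mitochondrial genes. In SafLD against saffron 10 cytosolic genes were higher without SafLD 1, and 10 without saffron 2. The part of these levels in the results was not tested beyond the lens covariate. Lens level as a covariate changed no count of cytosolic genes by more than 1.5 times.

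Of the multi-synthetase complex, the particle in which several cytosolic synthetases are held by scaffold proteins, 7 members were measured. Of these Mars1, Iars1, Lars1 and Eprs1 were higher in the average light effect, and Kars1, Qars1 and Rars1 were not. Mars1 charges methionine, including the initiator tRNA with which every chain begins. Its level was 10.14, 10.30 and 10.50 on the SafLD arrays, 10.40, 9.69 and 10.06 on the PBMLD arrays, and 10.36, 10.24 and 9.82 on the LD arrays. It was 9.04, 8.94 and 9.09 on the saffron arrays, 9.43, 9.37 and 9.38 on the PBM arrays, and 9.13, 9.28 and 9.11 on the control arrays. All light-exposed arrays were above all unexposed ones, with PBMLD 2 and LD 3 the lowest of the exposed. The difference from control was 1.14 ± 0.17 in SafLD (adjusted p = 0.000787), 0.88 ± 0.17 in PBMLD (adjusted p = 0.0154) and 0.97 ± 0.17 in LD (adjusted p = 0.00529). The PBMLD call was lost without PBMLD 1 (adjusted p = 0.0607), control 1 (0.0777) or control 3 (0.0735).

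Iars1, the isoleucine enzyme, stood at 10.20, 10.68 and 10.63 on the SafLD arrays, 10.77, 10.17 and 10.71 on the PBMLD arrays, and 10.53, 10.37 and 10.27 on the LD arrays. Unexposed retinas gave 9.40, 9.27 and 9.61 on the saffron arrays, 9.77, 9.67 and 9.59 on the PBM arrays, and 9.49, 9.69 and 9.08 on the control arrays. The exposed and unexposed arrays did not overlap. Against control the difference was 1.09 ± 0.18 in SafLD (adjusted p = 0.00328), 1.13 ± 0.18 in PBMLD (adjusted p = 0.0037) and 0.97 ± 0.18 in LD (adjusted p = 0.0112), the last being lost without control 3 (adjusted p = 0.0762). Lars1, which charges leucine and is known in human cells as a leucine sensor upstream of mTORC1, read 10.45, 10.21 and 10.44 on the SafLD arrays, 10.25, 9.51 and 9.80 on the PBMLD arrays, and 10.17, 9.97 and 10.17 on the LD arrays. It read 9.29, 9.54 and 9.22 on the saffron arrays, 9.55, 9.55 and 9.56 on the PBM arrays, and 9.22, 9.28 and 9.41 on the control arrays. SafLD 1 and SafLD 3 were the highest, and PBMLD 2 lay below saffron 2 and the PBM arrays. Lars1 differed from control by 1.06 ± 0.15 in SafLD (adjusted p = 0.000834) and 0.80 ± 0.15 in LD (adjusted p = 0.0132), whereas 0.55 ± 0.15 in PBMLD did not pass (adjusted p = 0.128). The LD call was lost without LD 3 (adjusted p = 0.0772), control 1 (0.082) or control 2 (0.0634), and with the lens level as a covariate (0.135).

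Eprs1 encodes the fused glutamyl- and prolyl-tRNA synthetase, the one bifunctional enzyme of the family. It read 10.66, 10.49 and 10.54 on the SafLD arrays, 10.45, 9.90 and 10.37 on the PBMLD arrays, and 10.38, 10.35 and 10.53 on the LD arrays. The unexposed arrays gave 9.82, 10.11 and 9.75 on the saffron arrays, 9.92, 9.83 and 9.95 on the PBM arrays, and 9.81, 9.83 and 9.91 on the control arrays. PBMLD 2 fell within the unexposed range and the other 8 exposed arrays lay above it. The difference from control was 0.71 ± 0.14 in SafLD (adjusted p = 0.00957), 0.39 ± 0.14 in PBMLD (adjusted p = 0.255) and 0.57 ± 0.14 in LD (adjusted p = 0.0618). Against saffron the SafLD difference of 0.67 ± 0.14 (adjusted p = 0.0154) was lost without SafLD 3 (adjusted p = 0.0653), saffron 1 (0.0744) or saffron 3 (0.055).

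Outside the complex lay 12 cytosolic genes, and 7 of them were higher in the average light effect. Tars1, which charges threonine, had the smallest p over the 6 groups among the 30 members (moderated F test, adjusted p = 7.43e-07). Its level was 9.58, 9.61 and 9.78 on the SafLD arrays, 9.23, 9.49 and 9.34 on the PBMLD arrays, and 9.49, 9.65 and 9.85 on the LD arrays. It was 8.41, 8.58 and 8.43 on the saffron arrays, 8.27, 8.36 and 8.28 on the PBM arrays, and 8.38, 8.39 and 8.56 on the control arrays. The lowest exposed value of 9.23 was well above the highest unexposed value of 8.58. The difference from control was 1.22 ± 0.12 in SafLD (adjusted p = 1.9e-05), 0.91 ± 0.12 in PBMLD (adjusted p = 0.000394) and 1.22 ± 0.12 in LD (adjusted p = 2.95e-05). Cars1, the cysteine enzyme, read 9.75, 9.94 and 9.98 on the SafLD arrays, 9.99, 9.46 and 9.82 on the PBMLD arrays, and 9.91, 9.74 and 9.45 on the LD arrays. It read 8.59, 8.34 and 8.79 on the saffron arrays, 8.86, 8.79 and 8.70 on the PBM arrays, and 8.72, 8.88 and 8.58 on the control arrays. Again no exposed array reached down to the unexposed ones. Cars1 differed from control by 1.16 ± 0.16 in SafLD (adjusted p = 0.000421), 1.03 ± 0.16 in PBMLD (adjusted p = 0.00235) and 0.97 ± 0.16 in LD (adjusted p = 0.0035). The difference of 0.97 ± 0.16 between PBMLD and PBM (adjusted p = 0.0084) was lost without PBM 3 (adjusted p = 0.0734).

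Gars1, which charges glycine in both compartments, read 11.63, 11.78 and 11.79 on the SafLD arrays, 11.74, 11.67 and 11.81 on the PBMLD arrays, and 11.79, 11.76 and 11.59 on the LD arrays. Without light the arrays read 11.08, 11.02 and 11.04 on the saffron arrays, 11.03, 11.13 and 11.10 on the PBM arrays, and 11.13, 11.22 and 11.19 on the control arrays. The arrays of a group lay close together, and the exposed arrays did not overlap the unexposed ones. The difference was 0.55 ± 0.10 in SafLD (adjusted p = 0.00576), 0.56 ± 0.10 in PBMLD (adjusted p = 0.00938) and 0.53 ± 0.10 in LD (adjusted p = 0.0112) against control. The call was lost in PBMLD without control 1 (adjusted p = 0.0701), and in LD without LD 2 (0.0559) or control 1 (0.0722). Nars1, the asparagine enzyme, read 10.83, 10.85 and 10.81 on the SafLD arrays, 10.73, 10.49 and 10.68 on the PBMLD arrays, and 10.87, 10.78 and 10.71 on the LD arrays. Its unexposed levels were 10.21, 9.97 and 10.16 on the saffron arrays, 10.09, 10.12 and 10.16 on the PBM arrays, and 10.37, 10.39 and 10.18 on the control arrays. The groups did not overlap, and PBMLD 2 and PBMLD 3 were the lowest of the exposed. Nars1 differed from control by 0.52 ± 0.11 in SafLD (adjusted p = 0.0148), 0.33 ± 0.11 in PBMLD (adjusted p = 0.219) and 0.48 ± 0.11 in LD (adjusted p = 0.041). The SafLD call was lost without SafLD 2 (adjusted p = 0.0621), SafLD 3 (0.0623) or control 3 (0.0766), and the LD call with 15 of the 18 arrays left out in turn (adjusted p up to 0.192, without control 3) and with the lens level as a covariate (0.176), median centring (0.0612), quantile normalization (0.055) or the replicate number as a block (0.0623).

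Yars1, the tyrosine enzyme, read 10.29, 10.49 and 10.58 on the SafLD arrays, 10.50, 10.03 and 10.42 on the PBMLD arrays, and 10.41, 10.39 and 9.94 on the LD arrays. It read 9.57, 9.04 and 9.50 on the saffron arrays, 9.62, 9.68 and 9.73 on the PBM arrays, and 9.63, 9.66 and 9.53 on the control arrays. LD 3 was the lowest exposed array, still above every unexposed one. Against control the SafLD difference of 0.84 ± 0.16 passed (adjusted p = 0.00928; 0.0648 without SafLD 3), whereas 0.71 ± 0.16 in PBMLD (adjusted p = 0.0543) and 0.64 ± 0.16 in LD (adjusted p = 0.0782) did not. Aars1, the alanine enzyme, read 10.69, 11.18 and 11.36 on the SafLD arrays, 11.24, 10.50 and 10.85 on the PBMLD arrays, and 10.97, 11.05 and 10.42 on the LD arrays. It read 9.93, 9.23 and 9.79 on the saffron arrays, 10.47, 10.47 and 10.37 on the PBM arrays, and 9.98, 10.16 and 9.85 on the control arrays. LD 3 lay below 2 of the PBM arrays, and saffron 2 was the lowest of all. Aars1 differed from control by 1.08 ± 0.22 in SafLD (adjusted p = 0.0143), by 0.87 ± 0.22 in PBMLD (adjusted p = 0.0882) and by 0.82 ± 0.22 in LD (adjusted p = 0.109). Its SafLD call was lost without SafLD 2 (adjusted p = 0.0658), SafLD 3 (0.0959), control 1 (0.0586) or control 3 (0.0689), whereas the difference of 1.43 ± 0.22 between SafLD and saffron (adjusted p = 0.00162) held with any array left out.

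Sars1, which charges serine and also the selenocysteine tRNA, was called only in the average over the exposed groups. It read 10.86, 10.79 and 10.78 on the SafLD arrays, 10.83, 10.39 and 10.82 on the PBMLD arrays, and 10.92, 10.74 and 10.63 on the LD arrays. It read 10.45, 10.22 and 10.39 on the saffron arrays, 10.40, 10.42 and 10.40 on the PBM arrays, and 10.39, 10.41 and 10.49 on the control arrays. PBMLD 2 was the only exposed array within the unexposed range. The average light effect was 0.36 ± 0.07 (adjusted p = 0.00633), against differences from control of 0.38 ± 0.13 in SafLD, 0.26 ± 0.13 in PBMLD and 0.34 ± 0.13 in LD, with adjusted p between 0.118 and 0.435.

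**Figure D3:**
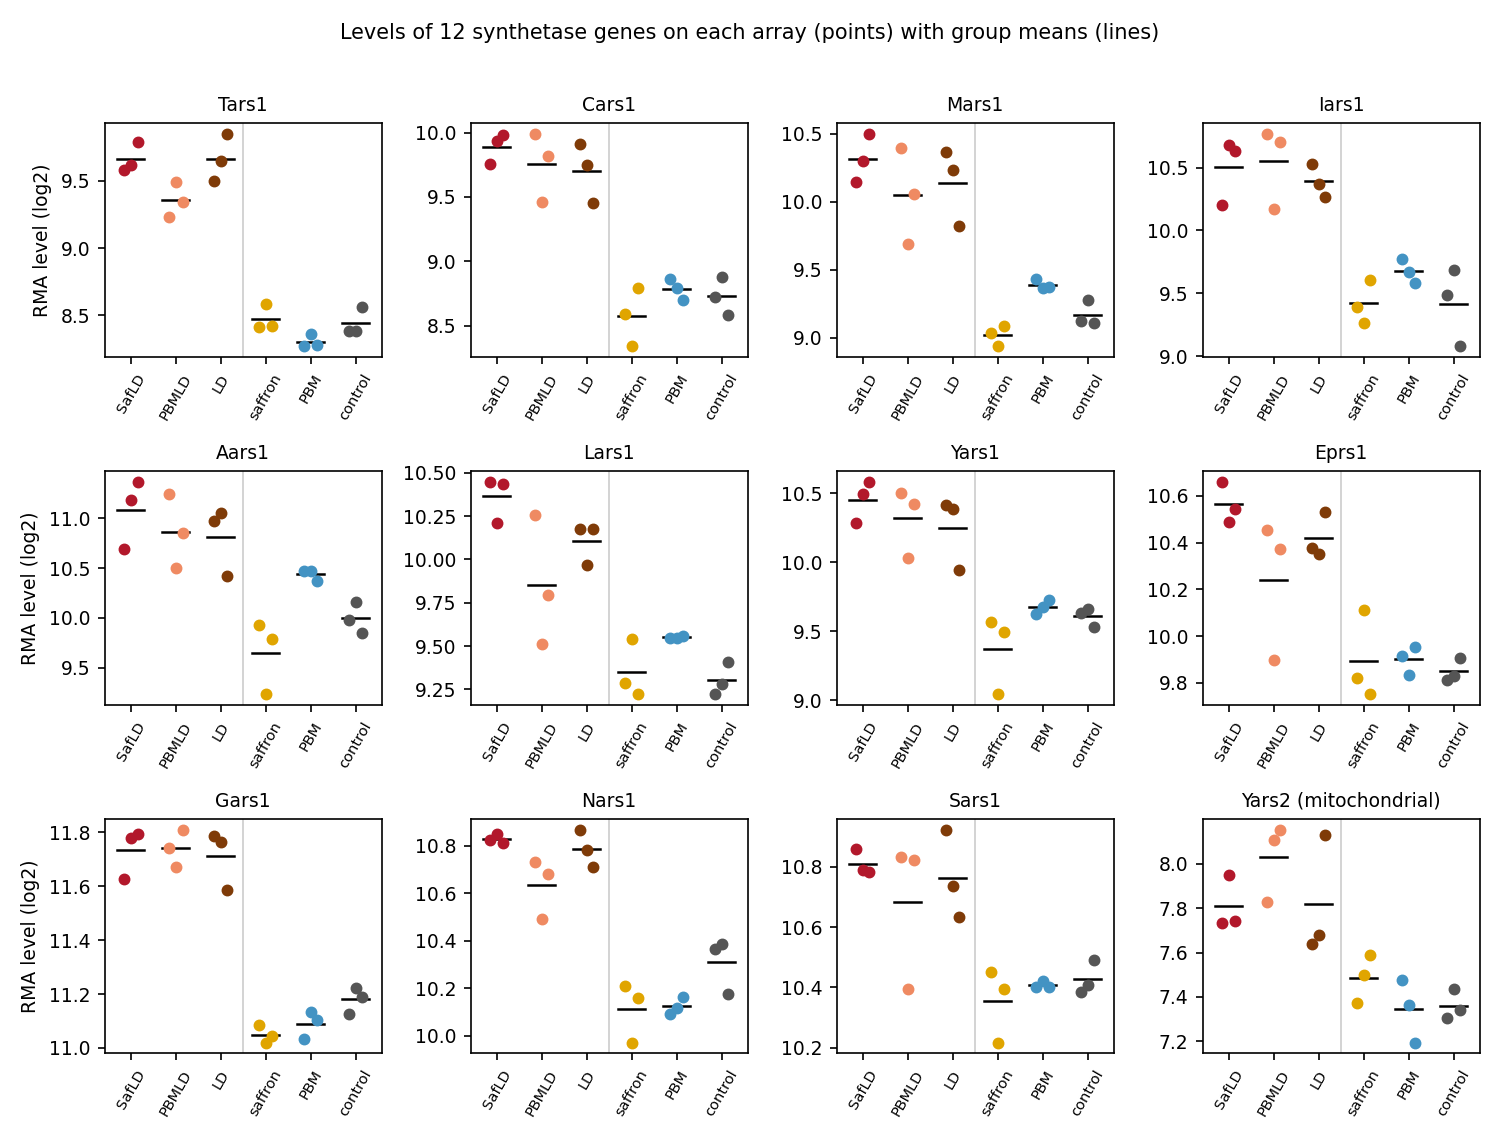
Log2 level on each array (points, 3 a group) and group mean (line) of 12 synthetase genes, with the exposed groups SafLD, PBMLD and LD left of the grey line and the saffron, PBM and control groups right of it; each vertical axis has its own range and does not start at 0. Exposed and unexposed points are apart for 8 genes and overlap for Aars1, Lars1, Eprs1 and Sars1.

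Of the 30 members, 8 had every exposed array above every unexposed one, as had 0.633% of all probe sets. They were Tars1, Cars1, Gars1, Mars1, Nars1, Iars1, Yars1 and Yars2.

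The 8 cytosolic genes without a call were Farsa and Farsb, the 2 subunits of the phenylalanine enzyme, Hars1 (histidine), Kars1 (lysine), Qars1 (glutamine), Rars1 (arginine), Vars1 (valine) and Wars1 (tryptophan). Their adjusted p was 0.314 or more in each of the 3 comparisons with control. In the average light effect their 95% intervals ran from -0.30 at the lowest (Kars1) to 0.40 at the highest (Rars1), so that a 2-fold difference lay outside every one of them. Wars1, which interferon induces in human cells, differed from control by -0.38 ± 0.19 in SafLD (adjusted p = 0.334) and -0.11 ± 0.19 in LD. Qars1 differed by -0.15 ± 0.19 in SafLD, by -0.49 ± 0.19 in PBMLD (adjusted p = 0.314) and by 0.08 ± 0.19 in LD, and its level on PBMLD 2 was 7.25, the lowest of the 18 arrays. By catalytic fold, 5 of 9 class I and 5 of 9 class II cytosolic enzymes were higher in the average light effect, with Eprs1 belonging to both classes. Inside the complex 4 of 7 were higher and outside it 7 of 12.

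Of the 11 mitochondrial genes only Yars2, which charges tyrosine, was called. It read 7.73, 7.95 and 7.74 on the SafLD arrays, 7.83, 8.11 and 8.15 on the PBMLD arrays, and 7.64, 7.68 and 8.13 on the LD arrays. It read 7.37, 7.50 and 7.59 on the saffron arrays, 7.47, 7.36 and 7.19 on the PBM arrays, and 7.31, 7.44 and 7.34 on the control arrays. The lowest exposed array, LD 1 at 7.64, was just above the highest unexposed one, saffron 3 at 7.59. The average light effect was 0.49 ± 0.08 (adjusted p = 0.00124). Against control the difference was 0.45 ± 0.14 in SafLD (adjusted p = 0.103), 0.67 ± 0.14 in PBMLD (adjusted p = 0.0322) and 0.46 ± 0.14 in LD (adjusted p = 0.181). The PBMLD call was lost without PBMLD 2 (adjusted p = 0.0535), PBMLD 3 (0.0991), PBM 2 (0.0506), control 1 (0.139), control 2 (0.0776) or control 3 (0.123). That between PBMLD and PBM (0.68 ± 0.14, adjusted p = 0.0457) was lost in 15 of 18 such fits, with an adjusted p of up to 0.289 without PBM 3.

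The next largest mitochondrial differences were those of Hars2 and Fars2, the histidine and phenylalanine enzymes. Hars2 read 8.07, 8.43 and 8.39 on the SafLD arrays, 8.70, 7.78 and 8.14 on the PBMLD arrays, and 8.24, 8.21 and 8.06 on the LD arrays. It read 7.76, 7.57 and 7.95 on the saffron arrays, 8.17, 8.20 and 8.02 on the PBM arrays, and 7.90, 8.11 and 7.71 on the control arrays. Exposed and unexposed arrays overlapped, PBMLD 2 being the lowest and PBMLD 1 the highest of the exposed. Its average light effect of 0.29 ± 0.11 did not pass (adjusted p = 0.157). Fars2 read 7.94, 7.77 and 7.77 on the SafLD arrays, 7.79, 7.33 and 7.90 on the PBMLD arrays, and 7.72, 7.91 and 7.83 on the LD arrays. It read 7.58, 7.63 and 7.49 on the saffron arrays, 7.44, 7.68 and 7.33 on the PBM arrays, and 7.38, 7.40 and 7.69 on the control arrays. PBMLD 2 and PBM 3 were the lowest of the 18 arrays, and Fars2 did not pass either, at 0.26 ± 0.08 (adjusted p = 0.101). Including Yars2, 10 of 11 mitochondrial differences were above 0 in the average light effect, 6 had an unadjusted p below 0.05, and Tars2 alone lay below 0. Of the 29214 probe sets 13991 were above 0 and 4691 had an unadjusted p below 0.05 in either direction. The 95% intervals of the 10 uncalled genes ended at 0.52 or lower.

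For 10 amino acids both a cytosolic and a mitochondrial enzyme were measured, which made 11 pairs with Farsa and Farsb each set beside Fars2. The cytosolic gene had the larger average light effect in 7 pairs. The widest gap was that of the threonine enzymes, with 1.15 ± 0.07 for Tars1 and -0.04 ± 0.10 for Tars2. The alanine pair followed, with 0.89 ± 0.13 for Aars1 and 0.15 ± 0.09 for Aars2. The leucine pair had 0.71 ± 0.09 for Lars1 and 0.18 ± 0.10 for Lars2. The tyrosine enzymes were both called, with 0.79 ± 0.09 for Yars1 and 0.49 ± 0.08 for Yars2. In the histidine, phenylalanine and valine pairs the mitochondrial gene had the larger difference and neither was called. The gaps within pairs were not tested.

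**Figure D4:**
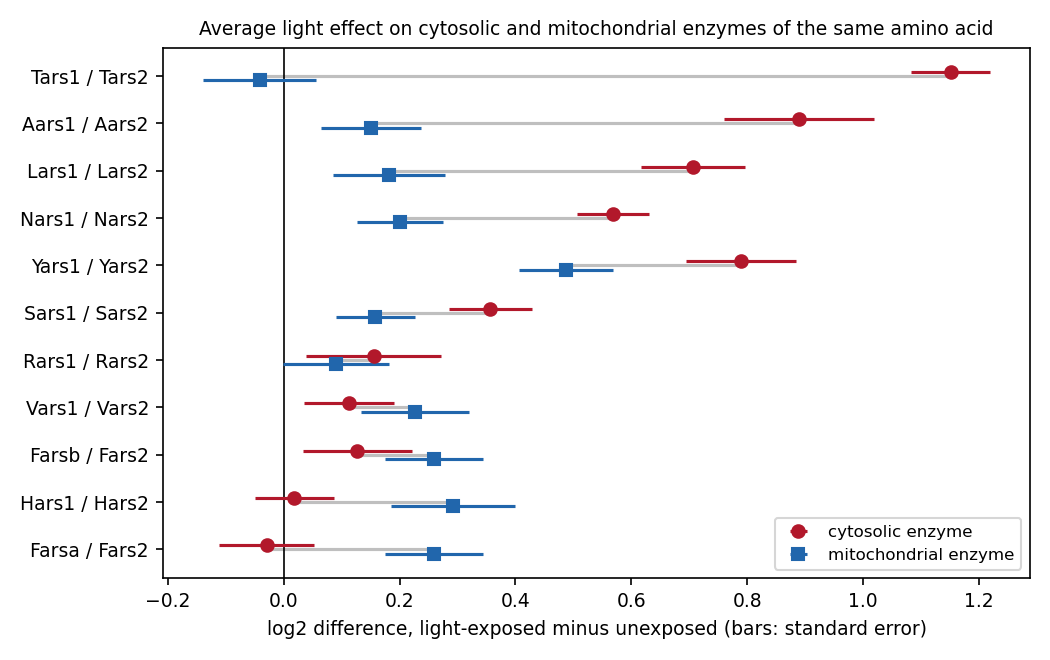
Average light effect (log2, 9 light-exposed minus 9 unexposed arrays) of the cytosolic (red circles) and the mitochondrial enzyme (blue squares) of the same amino acid, with standard errors, ordered by the gap. The gap is 1.19 for Tars1 and Tars2 at the top and -0.29 for Farsa and Fars2 at the bottom.

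Neither pretreatment by itself changed a synthetase gene by the test. In saffron against control 0 of 30 were called, as was no probe set on the array (0% of 29214), where 1343 had an unadjusted p below 0.05. No member had an unadjusted p below 0.05 there. In PBM against control 0 of 30 were called, where 0.154% of all probe sets were called in either direction. There 2 of the 30 members had an unadjusted p below 0.05, as had 2909 of the 29214 probe sets. Both members were mitochondrial and lower in PBM. They were Sars2 at -0.36 ± 0.12 (adjusted p = 0.305) and Rars2 at -0.33 ± 0.16 (adjusted p = 0.499). The median half-width of the unadjusted 95% intervals was 0.33 in both comparisons and ran from 0.21 to 0.47 by gene. It is not the limit of the adjusted call, which with 3 arrays a group can miss differences of this size and larger.

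The exposed groups with pretreatment did not differ from LD by the test either. SafLD against LD gave 0 of 30, where 0.308% of all probe sets were called in either direction. No member had an unadjusted p below 0.05 there, where 2791 of the 29214 probe sets had. PBMLD against LD gave 0 of 30, where 0.284% were called. Of the 30 members 3 had an unadjusted p below 0.05, as had 3360 of the 29214 probe sets. The 3 members were Qars1 at -0.58 ± 0.19 (adjusted p = 0.271), Tars1 at -0.31 ± 0.12 (adjusted p = 0.329) and the mitochondrial valine gene Vars2 at 0.50 ± 0.16 (adjusted p = 0.255). For Tars1 the PBMLD values of 9.23, 9.49 and 9.34 stood beside the LD values of 9.49, 9.65 and 9.85, the highest PBMLD array and the lowest LD array meeting at 9.49. The change of the light effect with pretreatment was tested as an interaction, and 0 of 30 passed for saffron, where 0.14% of all probe sets did, and 0 of 30 for PBM, where 0.00685% did. No member had an unadjusted p below 0.05 for saffron, where 1707 of the 29214 probe sets had. For PBM 2 members had, where 1244 probe sets had. Of the 19 cytosolic genes 15 lay above 0 for saffron and 13 below 0 for PBM, as did 16113 and 13688 of the 29214 probe sets. The largest members were Aars1 with saffron at 0.61 ± 0.32 (adjusted p = 0.859) and Lars1 with PBM at -0.50 ± 0.22 (adjusted p = 0.999). The median half-width of the unadjusted intervals was 0.47 for both interactions. It is not the limit of the adjusted call, which can miss changes of the light effect of this size and larger.

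The RefSeq promoters of the members, 250 bases before and 50 after the annotated start in the build GRCr8, were searched for the C/EBP-ATF element TGATGNAA, the kind of site that Atf4 binds with a C/EBP partner, and for the motif of NRF1, a regulator of nuclear genes for mitochondrial proteins, each on both strands. Of the 30 members 28 had a promoter entry, Gars1 and Rars1 having none. The C/EBP-ATF motif was present in 7 of the 10 cytosolic genes with a call in the average light effect, in none of the other 7 cytosolic genes and in none of the 11 mitochondrial genes, Yars2 included. Of all 33469 promoters of this length 3.98% held it. The 7 genes were Aars1, Cars1, Iars1, Mars1, Nars1, Tars1 and Yars1, whereas Lars1, Eprs1 and Sars1 had calls but no match. The 30 bases around the match nearest to the start are printed for each gene, 5′ to 3′ on the strand of the gene, to show the shared letters, with the motif in capitals and read on either strand.
Aars1, chr19:55908480-55908509: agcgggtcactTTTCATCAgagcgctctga
Cars1, chr1:208225334-208225363: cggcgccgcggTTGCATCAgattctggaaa
Iars1, chr17:15193658-15193687: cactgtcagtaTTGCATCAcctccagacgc
Mars1, chr7:65023752-65023781: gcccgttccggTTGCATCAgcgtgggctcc
Nars1, chr18:60275778-60275807: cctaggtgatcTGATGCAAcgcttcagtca
Tars1, chr2:62114811-62114840: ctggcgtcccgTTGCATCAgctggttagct
Yars1, chr5:146820183-146820212: cggagctacgagctcagcTGATGCAAcctg
Aars1 and Yars1 lie on the plus strand and the other 5 genes on the minus strand. These 7 matches began within 38 bases of the annotated start. Aars1 held a second match farther away, at -112 from the start, with the letters TTGCATCA. A match is a description of the letters and not a bound site, and the starts used in retina may differ from the annotated ones.

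The promoters of the threonine pair, the pair with the widest gap, are shown for the 250 bases before the start, again with the C/EBP-ATF motif in capitals.
Tars1, chr2:62114803-62115052, minus strand: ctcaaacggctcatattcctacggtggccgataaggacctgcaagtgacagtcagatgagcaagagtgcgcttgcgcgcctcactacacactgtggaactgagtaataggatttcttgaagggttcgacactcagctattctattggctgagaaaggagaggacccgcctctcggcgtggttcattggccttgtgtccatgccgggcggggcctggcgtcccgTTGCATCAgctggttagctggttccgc
Tars2, chr2:185999114-185999363, minus strand: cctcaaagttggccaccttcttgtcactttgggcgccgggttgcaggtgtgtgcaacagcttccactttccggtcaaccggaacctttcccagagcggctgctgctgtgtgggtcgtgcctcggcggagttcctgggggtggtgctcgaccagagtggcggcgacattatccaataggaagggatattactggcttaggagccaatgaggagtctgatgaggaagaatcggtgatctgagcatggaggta
Tars1 holds the motif once in this stretch and Tars2 does not hold it. The NRF1 motif was found in Tars1, Sars1, Farsb and Pars2, and in 4.25% of all promoters, so that it occurred in 2 of 10 called and 1 of 7 uncalled cytosolic genes and in 1 of 11 mitochondrial genes.

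**Figure D5:**
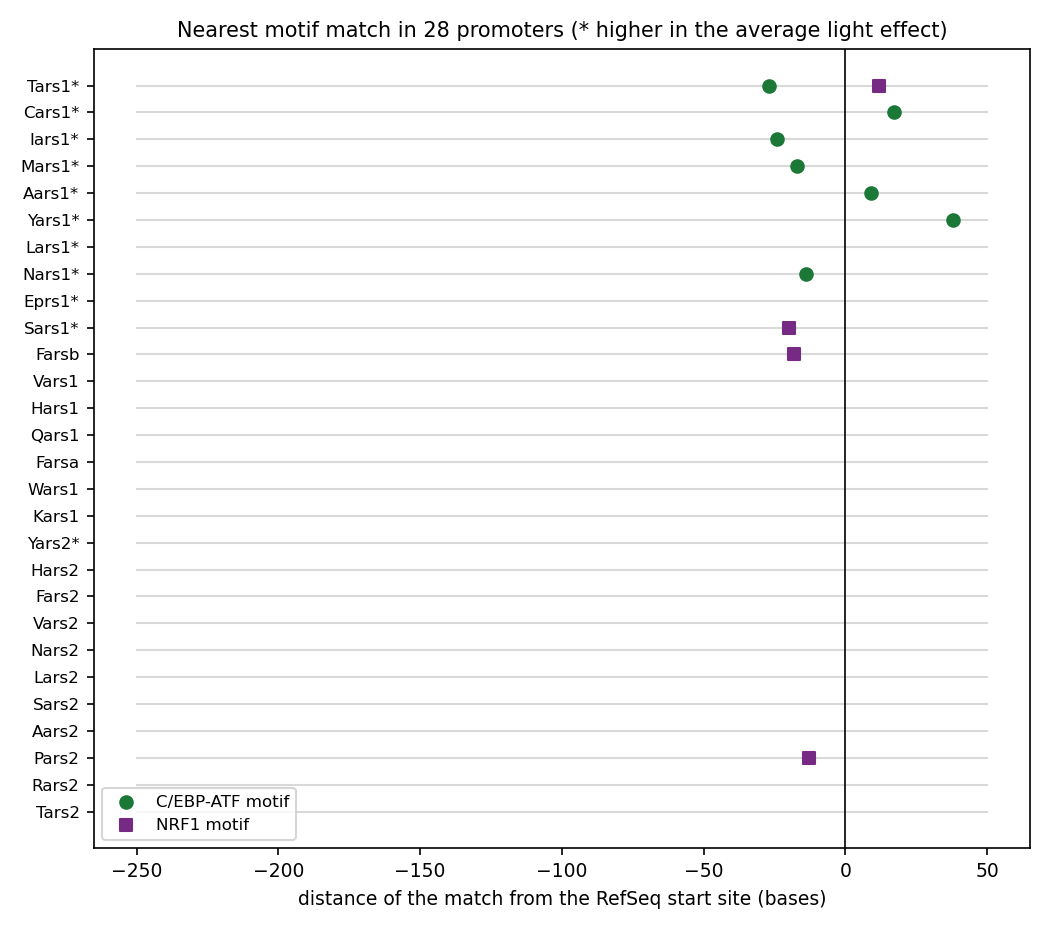
Position of the C/EBP-ATF (green circles) and the NRF1 motif match (purple squares) nearest to the start in 28 promoters, in bases from the RefSeq start, with cytosolic genes above mitochondrial genes, each ordered by the average light effect; a star marks the genes called higher. Green circles are found in 7 starred cytosolic genes, within 38 bases of the start, and in no unstarred or mitochondrial gene.

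Genes that work with the synthetases were taken from a list: the scaffold proteins Aimp1, Aimp2 and Eef1e1 of the complex, the elongation factors that carry charged tRNA to the ribosome, and enzymes that edit or finish tRNA. None of the 18 measured was called in SafLD, PBMLD or LD against control or in the average light effect. Over all probe sets 1.45% were higher in SafLD, 0.325% in PBMLD and 0.839% in LD. In the average light effect 2.83% were higher and 2% lower, so 0 of 18 is near these shares. The 18 lay there between -0.22 and 0.15 with a median of -0.04. In SafLD against control they lay between -0.60 and 0.13 with a median of -0.10. There 4 had an unadjusted p below 0.05, as had 4934 of the 29214 probe sets. The scaffold genes had average light effects of 0.01 ± 0.12 for Aimp1, 0.15 ± 0.10 for Aimp2 and -0.04 ± 0.09 for Eef1e1. Tars3, the second cytosolic threonine enzyme, stood at 0.05 ± 0.10 (adjusted p = 0.879) beside the 1.15 ± 0.07 of Tars1.

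A second list held 27 measured genes linked to Atf4, apart from synthetases. Of these 15 were higher and 2 lower in the average light effect, where 2.83% of all probe sets were higher and 2% lower. Against control 8 were higher in SafLD, where 1.45% of all probe sets were, 6 in PBMLD, where 0.325% were, and 6 in LD, where 0.839% were, with none called in saffron or PBM. Asns, the asparagine synthetase, had the largest difference at 1.89 ± 0.07, followed by the mitochondrial folate enzyme Mthfd2 at 1.77 ± 0.08 and the pseudokinase Trib3 at 1.47 ± 0.10. Slc1a4, a carrier of neutral amino acids, was higher by 1.22 ± 0.11 and Aldh18a1, the first enzyme of proline synthesis, by 1.13 ± 0.09. Atf4 itself was higher by 0.35 ± 0.08 (adjusted p = 0.0119) and Cebpg, a C/EBP partner, by 0.73 ± 0.10. The 2 lower genes were Phgdh at -0.48 ± 0.12, the first enzyme of serine synthesis, and Cth at -0.52 ± 0.10, which makes cysteine. The C/EBP-ATF motif was in 6 of the 24 promoters of this list with an entry, and in 3.98% of all promoters. The 6 genes were Chac1, Nupr1, Pck2, Pycr1, Slc1a4 and Trib3, of which Nupr1 and Pck2 were not called in the average light effect. Both lists were drawn up with earlier results of these data known, and what raised or lowered their genes was not tested.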

How the data were processed

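Whole-retina RNA of 18 rats in 6 groups of 3 was hybridised to 18 arrays (Affymetrix Rat Gene 1.0 ST). The authors deposited log2 values per probe set, background-corrected, quantile-normalized and summarised by RMA in Affymetrix Expression Console (version 1.1.2800.19935, per the submitters' processing notes). No genome build was found in the labels or methods read here. RMA pulls the arrays to 1 distribution, so a change shared by most genes would not show, and precision is limited by the 3 arrays a group.

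Genes were named from the platform annotation, in which 15310 of 29214 probe sets had 1 symbol, 323 several and 13581 none, and the brightest probe set of a gene was used. The values were fitted with limma 3.58.1 (R 4.3.3) with a mean for each group over all 18 arrays, giving 12 residual and 5.05 prior degrees of freedom, and p was adjusted by Benjamini-Hochberg for each of 12 comparisons. The procedure was tested on simulated data. Array values are printed for members called in SafLD, PBMLD or LD against control, for the 3 mitochondrial genes with the largest average light effect, and, chosen after its values were seen, for Sars1. The members and lists were chosen with earlier results of these data known. No test of a list was made. Alternatives were other normalizations, a filter on dim probe sets, array weights, the methods' t-test, a lens covariate, a replicate block and leaving out each array. The labels' replicate numbers are not stated to mark a shared litter or day, and same-numbered arrays did not deviate together (45 correlations, median -0.05), so they were not treated as pairs. Some items are not reported here.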

Additional observations from a re-analysis of the deposited data

How the results depend on the processing

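The 49 results for single genes followed here were those called in the main fit of a comparison of light exposure. None reversed its direction in 31 other settings, where 1317 values kept their side of the threshold and 166 lost it. Genes without a call were not followed singly in this way. Many of the 31 settings kept the group means of a comparison, so a direction could not change in them. Among them were the fold limit, the t-tests, the fit on 2 groups, the filter on dim probe sets and the replicate block. Leaving out an array of a group not compared likewise left a difference as it was. With 3 arrays a group the smaller differences lie near the threshold, and the cause of each change below was not tested. The main counts of cytosolic genes higher were 10 in SafLD, 5 in PBMLD and 7 in LD against control, 10 in SafLD against saffron, 3 in PBMLD against PBM and 11 in the average light effect. Requiring a fold above 2 gave 6, 2, 1, 7, 1 and 2 in that order, and no mitochondrial gene in PBMLD or the average light effect (0). The methods' t-test, unadjusted and with a fold above 2, gave 6 in SafLD, 2 in PBMLD, 1 in LD and 1 in PBMLD against PBM, and 0 mitochondrial genes in PBMLD, and after Benjamini-Hochberg it gave 0 in every comparison it was run for. Fitting the 2 compared groups alone gave 1 in PBMLD, 4 in LD and 1 in PBMLD against PBM, with 0 mitochondrial genes in both PBMLD comparisons. Array weights gave 9 cytosolic genes in PBMLD, 11 in LD and 7 in PBMLD against PBM, and 2 mitochondrial genes in SafLD, 3 in SafLD against saffron and 5 in the average light effect. In PBMLD against PBM, cyclic loess and the filter on dim probe sets each gave 5 cytosolic genes, and the call of Yars2 was lost (0) with quantile normalization, cyclic loess, the lens covariate and the replicate block. With the replicate block the call of Nars1 in LD was also lost (adjusted p = 0.0623 by limma), as it was with median centring (0.0612) and quantile normalization (0.055), and the block changed no other call of a single gene.

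Leaving out 1 array at a time, the cytosolic count ran from 7 to 11 in SafLD, 3 to 9 in PBMLD (3 without control 1, 9 without PBMLD 2), 4 to 9 in LD (4 without control 1), 9 to 11 in SafLD against saffron and 2 to 6 in PBMLD against PBM (2 without PBM 3, 6 without PBMLD 2), and it stayed at 11 in the average light effect. The mitochondrial count ran from 0 to 1 in both PBMLD comparisons and from 1 to 3 in the average light effect (3 without PBMLD 2). The median mitochondrial difference ran from 0.16 to 0.30 in SafLD (0.16 without control 3), 0.11 to 0.35 in PBMLD (0.11 without PBMLD 1, 0.35 without PBMLD 2), 0.10 to 0.21 in LD (0.10 without LD 2), 0.09 to 0.29 in PBMLD against PBM (0.09 without PBMLD 1, 0.11 without PBMLD 3, 0.12 without PBM 3, 0.29 without PBMLD 2) and 0.25 to 0.37 in SafLD against saffron (0.37 without saffron 3), and the cytosolic one from 0.23 to 0.47 in PBMLD against PBM (0.47 without PBMLD 2). The 0 calls in saffron, PBM, SafLD against LD, PBMLD against LD and both interactions held in all such fits. The t-test and the fit on 2 groups were not run for the interactions and the average light effect.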
